A study of Oryza sativa Indica Group with 8 samples.

Results

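The comparison described here sets leaves of rice plants that met salt shock only at the vegetative V4 stage against leaves of plants that were never shocked, and asks what an early shock alone leaves behind in the leaf. Its members are the 2 libraries titled Vegetative and the 2 titled Control, 4 of the 8 libraries of the series, chosen by their titles. All plants were of the salt-sensitive indica genotype BRS Ligeirinho, germinated for 7 days and then raised in 8 L pots of washed sand in a greenhouse. Control plants received water and Hoagland-Arnon nutrient solution and no salt. Vegetative-shock plants met salt at V4 only. The other 2 groups of 2 libraries, used here to place the loci found, were reproductive-shock plants, which met salt at R0-R1 only, and double-shock plants, which met it at both stages. No source used here states how much salt was given, for how long, or how long after it leaves were taken, so an effect of the early shock and a difference in the time of collection cannot be told apart. The labels do not say if the libraries of 1 group are from different plants. If they are not, the p-values reflect technical spread alone.

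Salt in the root zone lowers the water available to a plant and loads its tissues with sodium and chloride. In leaves the response is known to run through the hormone abscisic acid, through genes for protective proteins and compatible solutes, and through lower photosynthesis and growth. Stress memory is the name for changes that outlast the stress or alter the response to the next one, and altered chromatin is among the mechanisms described for it in plants.

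The deposited tables hold read counts for 55986 annotated loci. They carry no gene names, and the reference gene table at hand matched 0 of the identifiers, so loci appear by identifier and chromosome, without a function. Leaf markers and the 15 stress pathway lists drawn up for this comparison could not be tested for the same reason. Identifiers are printed for 2 loci that were higher and 2 that were lower, and other loci are given by their chromosome and by their rank in p.

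The control libraries held 11103102 and 10839036 counted reads and the vegetative-shock libraries 10548419 and 11369495. The limit that a count of 0 allows, 3 reads, came to 0.246 to 0.291 CPM (counts scaled to a common library size with TMM factors) in these 4 libraries, for counting error only. Across loci on the log2 CPM scale the vegetative-shock libraries correlated with each other at r = 0.971, no more closely than either did with the control libraries (r = 0.971 to 0.974), while the control libraries correlated at r = 0.978. The median absolute log2 difference per locus was 0.233 between the vegetative-shock libraries, 0.240 between the control libraries and 0.171 between the means of the groups, which average out part of the spread. Among these 4 libraries control replicate 1 stood apart in its share of reads aligned to more than 1 place, at 13.5%. The share was 9.60% in control replicate 2 and 9.99% and 9.50% in vegetative-shock replicates 1 and 2. In the other groups it was 9.51% and 13.8% in reproductive-shock replicates 1 and 2. Double-shock replicates 1 and 2 had 13.6% and 9.32%.

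In fits of all 8 libraries, most loci called after the early shock alone were falls. How many were called depended on the test. Of 18251 loci tested, 1 was called higher (0.00548%) and 5 were called lower (0.0274%) in vegetative-shock leaves, 0.0329% in all, by edgeR's quasi-likelihood test with Benjamini-Hochberg adjustment over all loci. All 6 had the same adjusted p of 0.043. On the same loci, robust quasi-likelihood called 14 (1 higher, 13 lower), DESeq2 128 (32 higher, 96 lower) and edgeR's likelihood ratio test 175 (39 higher, 136 lower). DESeq2 and the likelihood ratio test kept all 6 calls, and robust quasi-likelihood kept 5. The 1 locus that robust quasi-likelihood called higher was not among the 6. A fit of only the 4 libraries compared called 1 locus, a rise that was not among the 6. There the 6 had an edgeR adjusted p of 0.082 to 0.11. By quasi-likelihood over all 8 libraries, a further 8 loci shared an adjusted p of 0.051, just past the threshold of 0.05. Of those 8, 7 were lower. In all 14 the vegetative-shock libraries lay wholly outside the control libraries, which choosing loci by p in the same comparison favours. Over all loci that was so for 16.5% in the higher and 17.8% in the lower direction. In the 5 loci called lower the log2 fold change ran from -3.98 to -1.42, and the lowest control library was at least 2.25 times the highest vegetative-shock library. The number of calls rests on single libraries. Left out one at a time, either vegetative-shock library or either reproductive-shock library took it to 0. In those 4 fits 1234 to 1462 loci still had an unadjusted p below 0.05. Control replicate 2 took it to 2 calls, either double-shock library to 10, and control replicate 1 to 52, of which 49 were lower.

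**Figure D1:**
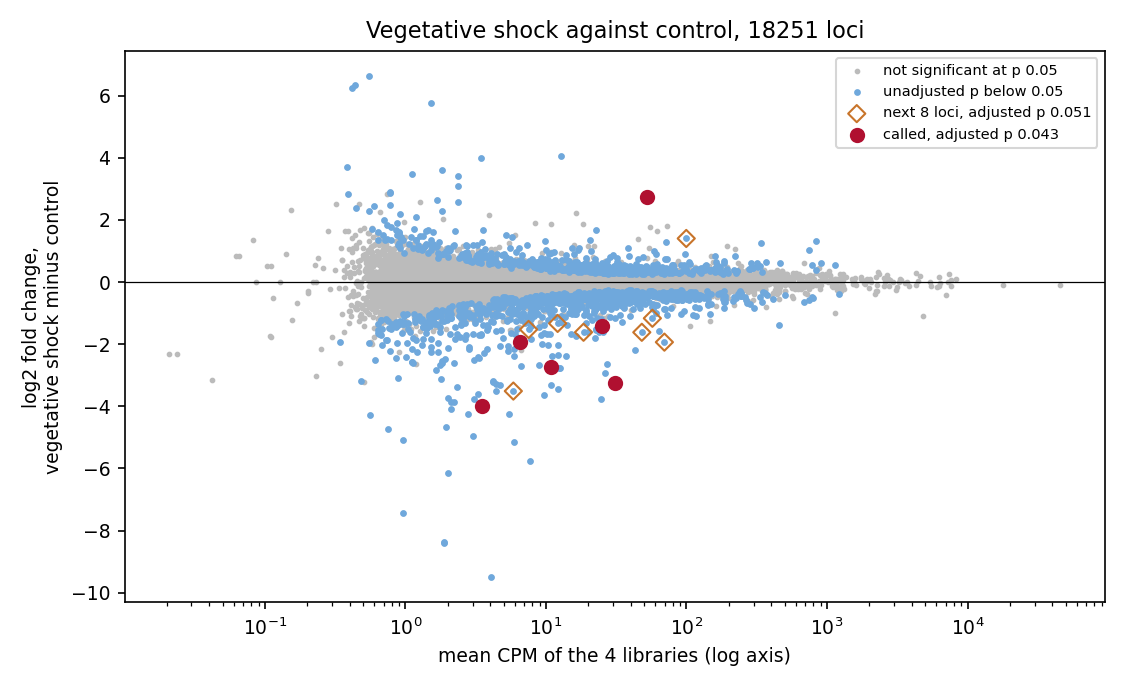
Log2 fold change of vegetative shock minus control against mean CPM of the 4 libraries (log axis), 1 point per tested locus. The 6 called loci (filled) and the 8 loci at an adjusted p of 0.051 (diamonds) lie mostly below 0.

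**Figure D2:**
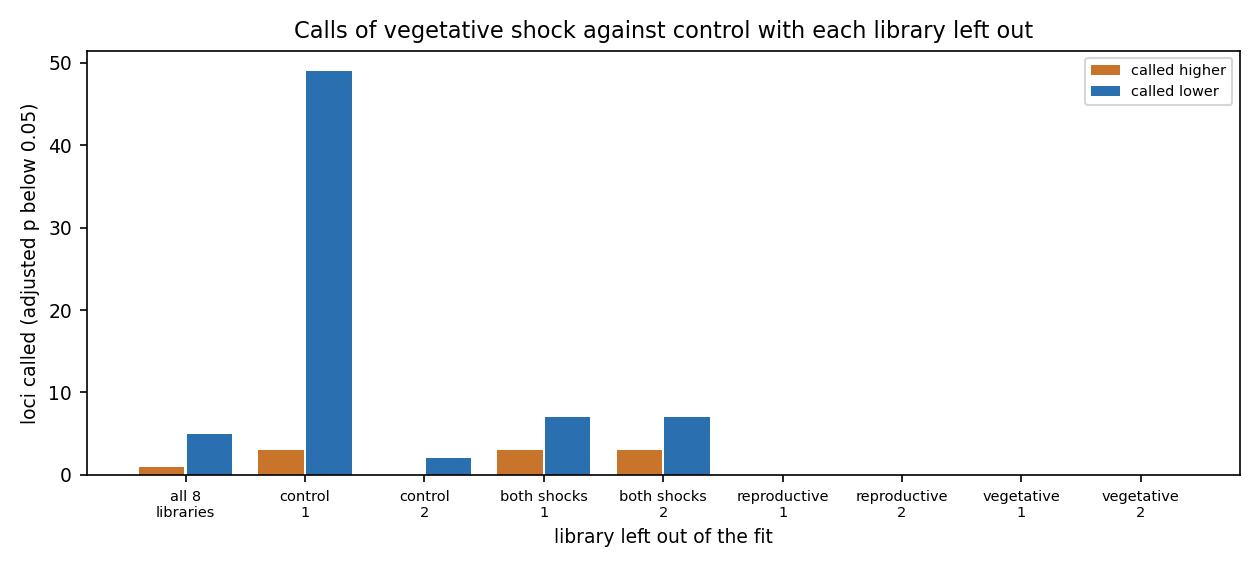
Number of loci called higher and lower in vegetative shock against control, by edgeR with all 8 libraries and with each library left out. Calls go from 6 to 52 without control replicate 1 and to 0 without either vegetative-shock or either reproductive-shock library.

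The locus called higher was LOC_Os10g42780 on chromosome 10. It stood at 16.7 and 10.8 CPM in control replicates 1 and 2 (13.7 ± 4.21, SD, n = 2). In vegetative-shock replicates 1 and 2 it stood at 68.8 and 114.8 CPM (91.8 ± 32.5, SD, n = 2), so that the lower of the shocked libraries was still well above the higher control. The log2 fold change was 2.73 (SE 0.31, 95% interval 2.04 to 3.43, edgeR adjusted p = 0.043), a 6.65-fold rise. The locus was as high or higher in every library of the other shocked groups, at 116.1 and 148.1 CPM after the reproductive shock and 118.4 and 169.9 CPM after both shocks. It was therefore high in all 6 shocked libraries, with no overlap with control.

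No second locus was called higher by this test. The one with the smallest p among uncalled rises whose libraries did not overlap was LOC_Os02g45930 on chromosome 2. It stood at 57.7 and 51.7 CPM in the control libraries and at 161.3 and 127.8 CPM in the vegetative-shock libraries (log2 fold change 1.40, SE 0.18, edgeR adjusted p = 0.051). Reproductive-shock leaves held the same high level, at 137.7 and 154.7 CPM. Double-shock leaves did not: their 49.8 and 36.8 CPM lay below both control libraries. This locus thus separated plants shocked at 1 stage from both never-shocked and double-shock plants, with no overlap between the high and the low libraries. With robust quasi-likelihood LOC_Os02g45930 was the 1 locus called higher (edgeR adjusted p = 0.031). LOC_Os10g42780 was not called there (edgeR adjusted p = 0.056).

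LOC_Os08g28710 on chromosome 8 had the largest fall among the called loci. It stood at 7.36 and 5.72 CPM in control and at 0.583 and 0.246 CPM in vegetative-shock leaves. The pooled reads were 148 against 9, a ratio of 16.5-fold (exact binomial 95% interval 8.45 to 36.7, counting error only). The fitted log2 fold change was -3.98 (SE 0.48, edgeR adjusted p = 0.043). After the reproductive shock the locus stood at 0.262 and 0.195 CPM (3 and 2 reads) and after both shocks at 0.683 and 0.506 CPM (7 and 6 reads). All 6 shocked libraries were far below the controls.

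LOC_Os02g47470 on chromosome 2 had the smallest p of all loci (3.41e-06). Control libraries stood at 38.9 and 73.2 CPM and vegetative-shock libraries at 5.25 and 6.40 CPM, a 9.56-fold fall (log2 fold change -3.26, SE 0.31, edgeR adjusted p = 0.043). The control libraries differed from each other, yet the lower of them was far above either vegetative-shock library. Reproductive-shock libraries were again at the low level, with 5.95 and 5.74 CPM. Double-shock libraries lay between, at 19.9 and 27.7 CPM, above every library shocked at 1 stage and below both controls.

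Of the other 3 loci called lower, 2 were on chromosome 2 and 1 on chromosome 5. The chromosome 2 locus of rank 2 stood at 34.3 and 38.7 CPM in control and 11.9 and 15.3 CPM in vegetative-shock leaves (log2 fold change -1.42, SE 0.15). In double-shock leaves it was back at 31.1 and 29.2 CPM, while reproductive-shock leaves had 12.9 and 13.6 CPM. The chromosome 2 locus of rank 4 fell from 21.7 and 15.9 CPM to 2.82 and 2.79 CPM, and double-shock leaves had 7.02 and 8.26 CPM. The chromosome 5 locus fell from 11.3 and 9.63 CPM to 2.62 and 2.79 CPM, and stayed low after both shocks at 3.51 and 3.45 CPM. The falls therefore came with 2 outcomes after both shocks: levels that stayed near those of vegetative-shock leaves, and levels part or most of the way to control.

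**Figure D3:**
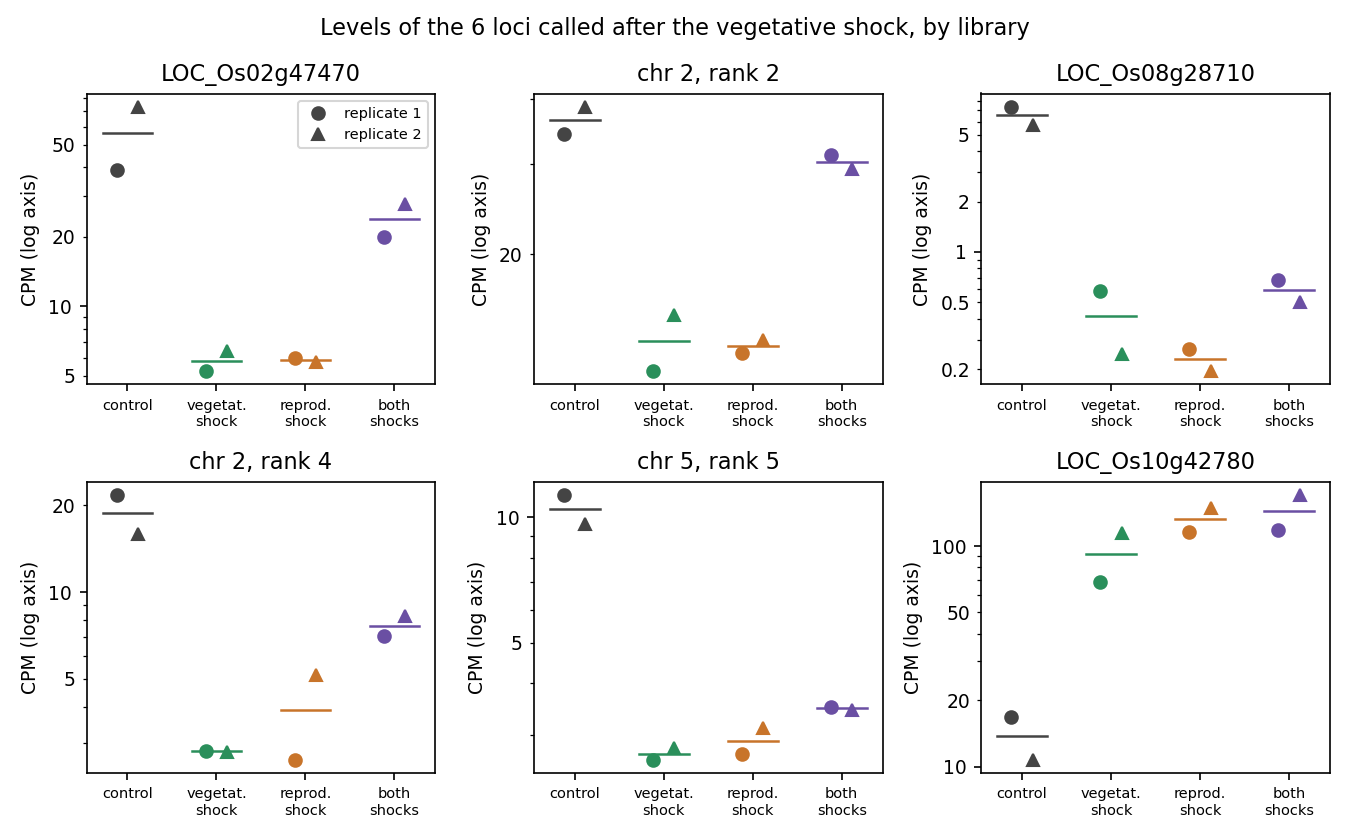
CPM (log axes, each panel with its own range) of the 6 called loci in every library; circles are replicate 1, triangles replicate 2, lines group means, and loci without an identifier are given by chromosome and rank in p. The control and vegetative-shock libraries do not overlap in any panel, and the double-shock libraries lie well above the vegetative-shock ones in LOC_Os02g47470 and both other chromosome 2 loci.

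The early shock was also measured in plants that met the late shock, by double-shock against reproductive-shock libraries. This comparison shares no library with the first, but both were taken from 1 fit of all 8 libraries. The estimate of spread that helped rank the 14 loci above thus includes the reproductive-shock and double-shock replicates. Loci with little spread within those groups were favoured, which can raise the counts of non-overlap and of small p given below. Double-shock against reproductive-shock leaves had 0 calls by edgeR (0%). There 1469 loci had an unadjusted p below 0.05, 3.38% of loci higher and 4.67% lower. DESeq2 called 63 and the likelihood ratio test 95. For 13 of the 14 loci above, the direction was opposite to that in plants without the late shock. All 12 loci that were lower in vegetative-shock than in control leaves stood above reproductive-shock leaves in double-shock leaves, with a median log2 difference of 0.99, where 51.6% of all loci were higher. In 11 of the 12 both double-shock libraries lay above both reproductive-shock libraries, against 20.5% of all loci. Of the 12, 8 had an unadjusted p below 0.05, and the smallest edgeR adjusted p was 0.18. Without double-shock replicate 1, 11 of the 12 were higher; with any other library left out all 12 were.

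The loci that were higher differed from each other in this respect. LOC_Os02g45930 was lower in double-shock than in reproductive-shock leaves by a log2 difference of -1.76 (SE 0.18, 95% interval -2.16 to -1.35, edgeR adjusted p = 0.096). LOC_Os10g42780 showed a log2 difference of 0.13 (95% interval -0.52 to 0.77, edgeR adjusted p = 0.93). For LOC_Os02g47470 the log2 difference was 2.03 (SE 0.32, 95% interval 1.31 to 2.75, edgeR adjusted p = 0.23). For LOC_Os08g28710 it was 1.32 on the few reads given above, with an interval of -0.13 to 2.85.

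**Figure D4:**
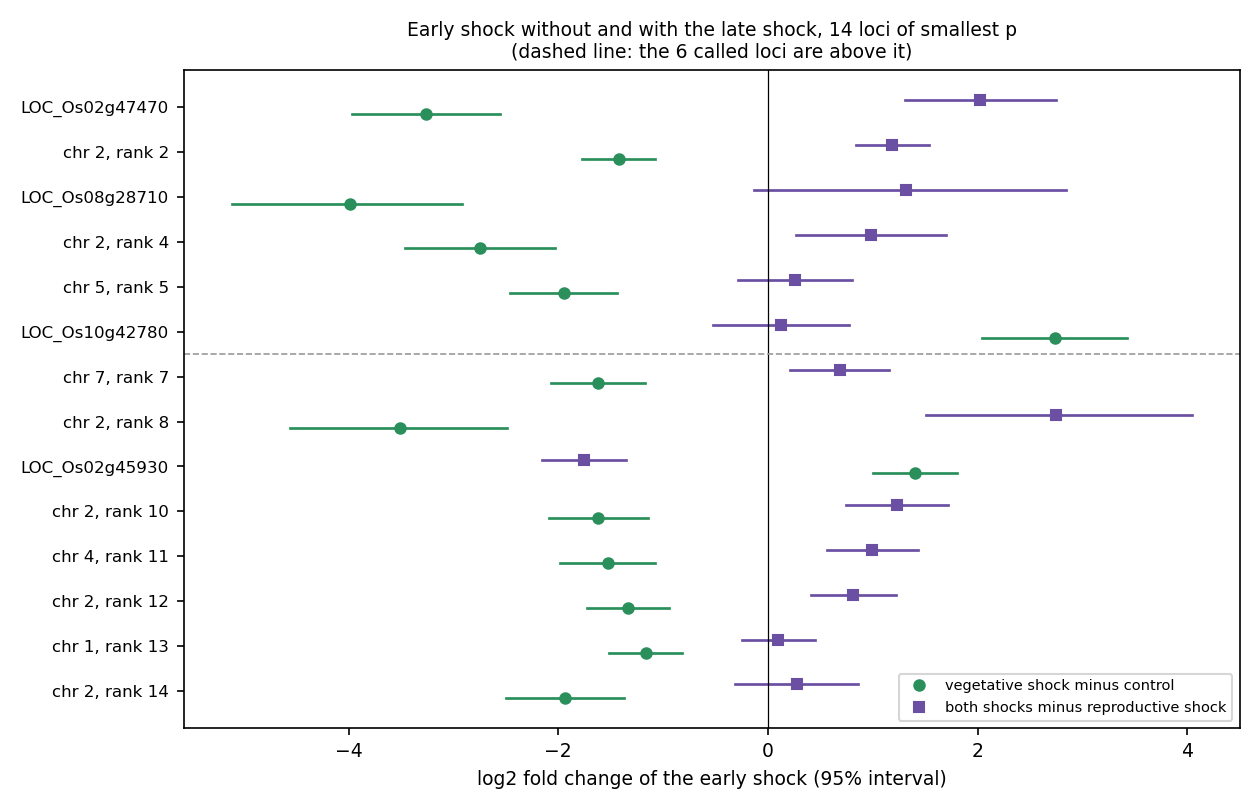
Log2 fold change with its 95% interval of the early shock in plants without the late shock (vegetative shock minus control, circles) and with it (both shocks minus reproductive shock, squares), for the 14 loci of smallest p in the former. The 12 loci left of 0 for the circles have squares right of 0, and LOC_Os02g45930 shows the reverse.

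The difference between these early-shock effects was tested as an interaction in the same fit. It called 18 loci (0.0986%), of which 13 were lower and 5 higher in vegetative-shock than in control leaves. Among the 14 loci 9 were called, 8 that were lower and LOC_Os02g45930. The 14 were chosen on vegetative shock against control, which is 1 side of the interaction, so this count favours a call and is a description. LOC_Os02g47470 had an interaction of 5.28 on the log2 scale (SE 0.44, edgeR adjusted p = 0.0066) and LOC_Os02g45930 of -3.16 (SE 0.25, edgeR adjusted p = 0.0066). LOC_Os10g42780 and LOC_Os08g28710 were not called (edgeR adjusted p = 0.070 and 0.060). No interaction was called by edgeR without either reproductive-shock library (1414 and 1327 loci at an unadjusted p below 0.05), and 55 were without control replicate 1.

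The late shock alone, set against the same control libraries, called 112 loci (0.614%), and both shocks called 30 (0.164%). These comparisons share their controls with vegetative shock against control, so values for the loci are only placed side by side. For LOC_Os02g47470 the log2 fold changes were -3.26 after the early shock, -3.26 after the late shock and -1.23 after both. For LOC_Os10g42780 they were 2.73, 3.26 and 3.38. For LOC_Os02g45930 they were 1.40, 1.42 and -0.34, and for LOC_Os08g28710 -3.98, -4.76 and -3.45. Reproductive-shock against vegetative-shock leaves, without the controls, called 10 loci (0.0548%) and none of the 14. The log2 difference there was 0.00 for LOC_Os02g47470 (95% interval -0.78 to 0.79) and 0.02 for LOC_Os02g45930 (95% interval -0.38 to 0.41). For 8 of the 14 the interval lay within a 2-fold difference either way. Double-shock against vegetative-shock leaves called 13 loci (0.0712%), 2 of them among the 14: LOC_Os02g45930, at a log2 difference of -1.74 (edgeR adjusted p = 0.026), and a chromosome 4 locus of rank 11, at 1.66 (edgeR adjusted p = 0.038).

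Over all loci, too, lower outnumbered higher. An unadjusted p below 0.05 was reached by 868 lower loci (4.76%) and 537 higher ones (2.94%), 7.7% in all, so that 61.8% were lower. With non-overlapping libraries and means at least 2-fold apart there were 356 lower (1.95%) and 164 higher (0.899%). The median log2 fold change of all loci was 0.00, near where TMM scaling sets it, and its median size 0.17. The excess was smaller in the most abundant class. With the loci split by mean CPM into 4 classes of equal number, 208 loci were lower and 183 higher in class 4, the most abundant, against 220 and 103 in class 2. By libraries that did not overlap, with no threshold on p, class 4 had more higher loci (843) than lower ones (699). It also depended on the control libraries, since leaving out control replicate 1 took the lower share to 54.3% and leaving out control replicate 2 took it to 52.0%. Of the 868 lower loci 529 (60.9%) stood higher after both shocks than after the reproductive shock, against 51.6% of all loci. Of the 537 higher loci 337 (62.8%) were lower there, against 48.4% of all loci.

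How small an effect could be bounded depended on abundance. The 95% interval of the fold change, taken for each locus alone, lay within 2-fold either way for 12634 of 18251 loci (69.2%). This share was 15.2% in class 1 (0.346 to 3.46 CPM), 72.8% in class 2, 93.1% in class 3 and 95.8% in class 4 (above 35.7 CPM). The interval lay wholly beyond 2-fold for 58 loci that were lower and 9 that were higher, and had no value for 13 loci with 0 reads in both libraries of control, of vegetative shock or of both. Among the 50 most abundant loci, which took 24.1% to 27.3% of the counts in the 4 libraries, none had an unadjusted p below 0.05, and 48 had an interval within 2-fold. The largest difference among them was in a chromosome 9 locus with a mean of 6616 CPM in control and 3074 CPM in vegetative-shock leaves (log2 fold change -1.11, 95% interval -3.31 to 1.10).

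**Figure D5:**
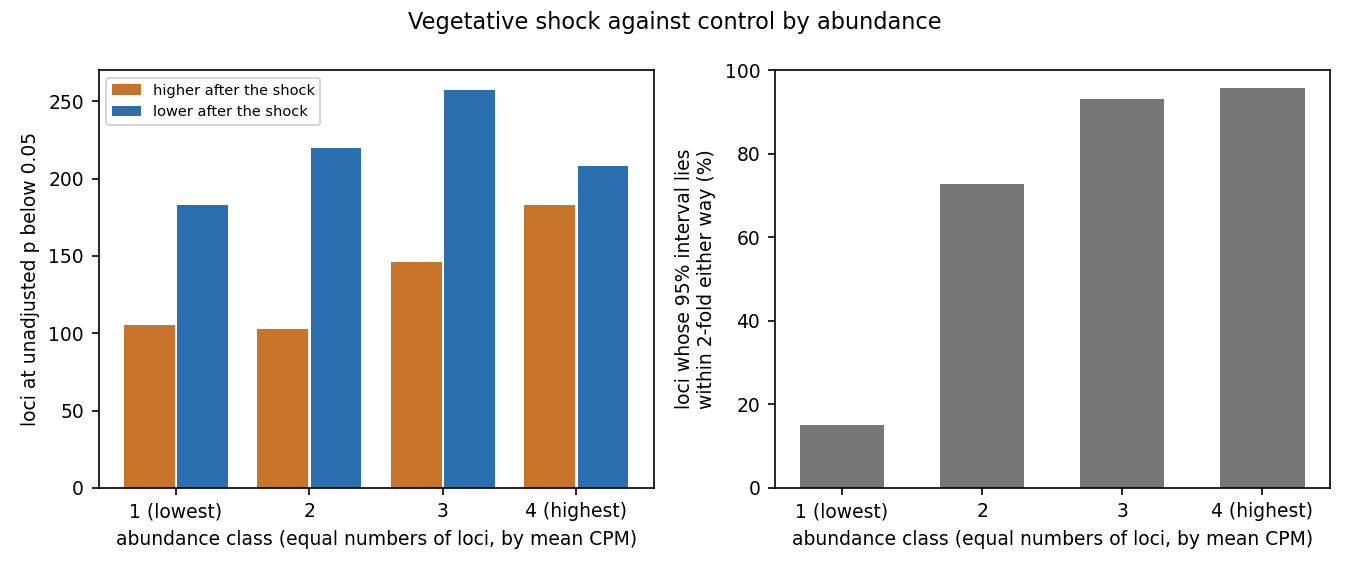
Vegetative shock against control in 4 abundance classes of equal number by mean CPM. Left, loci at an unadjusted p below 0.05 in each direction, with more lower than higher in each class (208 against 183 in class 4); right, percent of loci whose 95% interval lies within 2-fold either way, from 15.2% in class 1 to 95.8% in class 4.

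Control replicate 1 carried the highest share of multiply aligned reads of the 4 libraries, and no vegetative-shock library had a share like it. Outside the comparison, reproductive-shock replicate 2 and double-shock replicate 1 did, at 13.8% and 13.6%. With the share of multiply aligned reads as a term in the fit there were 7 calls. Of these 1, LOC_Os02g47470, was among the 6. The log2 fold changes of the named loci moved little: -3.44 for LOC_Os02g47470, 2.77 for LOC_Os10g42780, -3.83 for LOC_Os08g28710 and 1.52 for LOC_Os02g45930. LOC_Os10g42780 and LOC_Os08g28710 were then no longer called (edgeR adjusted p = 0.070 and 0.064), and LOC_Os02g45930 was (edgeR adjusted p = 0.036). Without control replicate 1, 4 of the 6 calls remained.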

How the data were processed

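Leaf RNA of 8 libraries in 4 groups of 2 was sequenced, and groups follow the sample titles. The authors deposited raw read counts per locus, 1 table per library, without normalisation. Per the labels' protocols, an Illumina TruSeq kit was used on total RNA. The submitters' processing notes name STAR 2.7, HTSeq 0.11.1, FastQC 0.11.7, edgeR 3.8 and Trimmomatic. The genome build, like the annotation and strand setting, is not given in the sources used here. Counts of overlapping or near-identical loci are therefore uncertain. The 5 HTSeq summary lines, 14.97% to 19.2% of reads listed, were left out.

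Loci passing edgeR's filterByExpr (18251) were fitted in 1 model of all 8 libraries with group as the only term and TMM factors (edgeR 4.0.16, R 4.3.3), with 4 residual and 4.77 prior degrees of freedom. Tests were two-sided quasi-likelihood F tests, called at a Benjamini-Hochberg adjusted p below 0.05. SE and 95% intervals come from the negative binomial weights and posterior quasi-dispersion. CPM use the TMM factors. The procedure was also run on counts simulated with planted changes, from the fitted negative binomial spread. The outcome of that run is not given here. Named loci are the 2 calls of largest change per direction with non-overlapping libraries and at least 5 CPM in the higher group, filled with the smallest p where fewer were called. The comparison, the rules and the gene lists were chosen with earlier results of these data known. The chi-square per degree of freedom between replicates was 12.4 in control and 14.4 in vegetative-shock libraries, so neither pair repeats 1 library. Alternatives included DESeq2 1.42.0, other filters and factors, added terms, and each library left out.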

Additional observations from a re-analysis of the deposited data

Results flagged for a closer look

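In 9 of the 14 loci of smallest p the effect of the early shock differed between plants without and with the late shock, by edgeR's interaction test. The 14 were chosen on 1 side of that test, which favours a call. The interaction is the log2 fold change of double against reproductive shock minus that of vegetative shock against control. It was 5.28 for LOC_Os02g47470 and -3.16 for LOC_Os02g45930. For 5 further loci of chromosome 2 it was 2.61 (rank 2), 3.73 (rank 4), 6.26 (rank 8), 2.85 (rank 10) and 2.15 (rank 12). It was 2.52 for the chromosome 4 locus of rank 11 and 2.30 for the chromosome 7 locus of rank 7. The edgeR adjusted p of the 9 ran from 0.0066 to 0.036.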

How the results depend on the processing

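Vegetative shock against control gave 6 calls with RLE factors, with a filter of 1 CPM in 2 libraries and with a 2-fold minimum, all 6 shared in each, against 499 with no low-count filter, 14 with robust quasi-likelihood, 175 with the likelihood ratio test, 128 with DESeq2, 1 with only the 4 libraries compared and 11 with the replicate block. The 1 call with only the 4 libraries compared was a rise and was not among the 6. Without the filter the prior degrees of freedom became infinite instead of 4.77, and 483 of the 499 calls were among the 18251 loci. Double against reproductive shock gave 0 calls, against 501 without the filter, 2 with robust quasi-likelihood, 95 with the likelihood ratio test and 63 with DESeq2. The interaction gave 18, against 646, 53, 249 and 175 in the same order, and 29 with the share of multiply aligned reads. Leaving out 1 library gave 0 to 52, 0 to 17 and 0 to 55 calls for these 3 comparisons. Each such fit has 1 library fewer, and why the counts rose in some and fell in others was not tested. The replicate numbers were not taken to pair libraries: deviations of same-numbered control and vegetative-shock libraries correlated at 0.012 (-0.153 to 0.254 over the 6 pairs of groups), and 4 of the 11 calls with the block were among the 6. No named locus changed sign in the 17 alternatives run for it. The log2 fold change of LOC_Os02g47470 ran from -3.64 to -2.73 with 12 calls, of LOC_Os08g28710 from -4.67 to -3.46 with 10, of LOC_Os10g42780 from 2.32 to 3.09 with 9, and of LOC_Os02g45930 from 1.23 to 1.56 with 8. Of the other loci called lower, those of chromosome 2 had 10 calls (rank 2) and 6 (rank 4), and that of chromosome 5 had 6. With 2 libraries a group, an absent call does not show that a locus was alike in both groups.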

Other observations

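Chromosome 2 held 8 of the 14 loci of smallest p, 7 lower and 1 higher, and 11.9% of the loci tested. This was seen after the values were known and was not tested. At an unadjusted p below 0.01 the chromosome held 55 of 425 loci (12.9%), near its share of the loci tested. By order of identifiers, 6 of the 8 lay between 69.8% and 93.3% of the way along the tested loci of the chromosome. That stretch held 23.6% of its tested loci and 17 of its 55 loci at p below 0.01 (30.9%). The 6 loci set the ends of the stretch and are counted among the 17, which raises this share. This share therefore cannot show if the loci cluster, which was not tested. The count of 8 was 3 to 8 over the alternatives run, with 3 without control replicate 1, without vegetative-shock replicate 1 and without the low-count filter.

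A few loci had reads in only 1 of the groups compared. Over all 55986 loci, 4 had 0 reads in both vegetative-shock libraries and at least 10 in each control library, and 1 had the reverse. The 4 lay on chromosomes 2, 4, 4 and 8. In that order these loci had 167 and 24, 32 and 12, 69 and 19, and 15 and 66 reads in control replicates 1 and 2. They held 4 to 62 reads in the double-shock libraries and 0 to 5 in the reproductive-shock libraries. The locus with reads after the shock, on chromosome 1, had 11 and 14 in the vegetative-shock libraries. It had 1 and 13 reads in the reproductive-shock libraries and 4 and 4 in the double-shock libraries. None of the 5 was called (edgeR adjusted p = 0.11 to 0.37). Between the libraries of a group, 0 reads in 1 library and at least 10 in the other occurred at 3 and 22 loci in control and at 7 and 16 in vegetative shock, depending on which library was at 0.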
